A study of Homo sapiens with 2 samples.

Results

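Transcripts of 10 genes that build and move the mitotic spindle were compared between ebastine-treated and vehicle-treated C4-2 cells. The genes were grouped by their function, with earlier results of these data known, and found by symbol. They were 5 motors of the kinesin family (KIF11, KIF20A, KIF23, KIF2C and CENPE) and 5 other proteins that bind spindle microtubules (PRC1, TPX2, NUSAP1, HMMR and DLGAP5). All 10 were among the 1947 genes of the deposited table. C4-2 is an established prostate cancer line derived from LNCaP, and ebastine is an antihistamine that blocks the histamine H1 receptor. The ebastine group was 1 library of C4-2 cells given the drug, and the vehicle group was 1 library of C4-2 cells given vehicle in its place. Both cultures were at passage 10 to 15 in RPMI-1640 with 10% fetal bovine serum, and polyadenylated RNA was sequenced. Neither label nor protocol states the dose, the exposure time or the vehicle. The design text speaks of 2 cell types, whereas both samples are labelled C4-2.

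The spindle is an array of microtubules that captures chromosomes and pulls them apart. Kinesins turn ATP hydrolysis into movement along microtubules or into their disassembly, while non-motor proteins nucleate, bundle and stabilise the filaments. Many spindle genes are transcribed periodically, with their mRNA highest in G2 and mitosis. A known route for this timing runs through promoter elements called the cell cycle genes homology region (CHR), bound by the MuvB complexes, and CCAAT boxes, bound by NF-Y. Because this timing is shared, the level of such transcripts in a culture also follows how many of its cells are in G2 or mitosis. Each library came from a whole culture, so fewer cells in G2 or mitosis and less of the transcript per cell cannot be told apart.

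The promoters of the members were examined first, since the letters of these elements can be read from sequence alone. RefSeq promoters of GRCh38.p14, each 300 bases from 250 before to 50 after the annotated start, were found for 9 members and not for TPX2. The stretches below run from 110 bases before the start and include 20 bases from the start onward, on the strand of the gene. They were taken for the 4 members with the lowest ratios between the libraries (CENPE, HMMR, DLGAP5 and KIF20A), for the most abundant member (NUSAP1) and for the member with the smallest difference (KIF11). Capitals mark TTTGAA, the usual letters of a CHR, and CCAAT, on either strand (TTCAAA and ATTGG when read from the other strand).
CENPE, chr4:103198324-103198453, minus strand: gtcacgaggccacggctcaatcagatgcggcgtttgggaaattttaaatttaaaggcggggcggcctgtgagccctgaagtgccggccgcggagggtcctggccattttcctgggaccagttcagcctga
HMMR, chr5:163460522-163460651, plus strand: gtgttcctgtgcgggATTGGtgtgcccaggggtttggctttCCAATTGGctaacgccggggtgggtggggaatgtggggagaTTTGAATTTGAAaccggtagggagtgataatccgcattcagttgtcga
DLGAP5, chr14:55191566-55191695, minus strand: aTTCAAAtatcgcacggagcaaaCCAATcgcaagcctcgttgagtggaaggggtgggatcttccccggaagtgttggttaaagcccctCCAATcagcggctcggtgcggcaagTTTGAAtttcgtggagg
KIF20A, chr5:138179002-138179131, plus strand: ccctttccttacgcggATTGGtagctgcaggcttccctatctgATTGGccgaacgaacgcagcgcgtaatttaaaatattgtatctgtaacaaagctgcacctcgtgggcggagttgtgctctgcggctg
NUSAP1, chr15:41332771-41332900, plus strand: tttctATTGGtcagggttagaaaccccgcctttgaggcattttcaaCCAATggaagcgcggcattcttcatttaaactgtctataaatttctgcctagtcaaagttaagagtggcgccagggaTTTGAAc
KIF11, chr10:92593020-92593149, plus strand: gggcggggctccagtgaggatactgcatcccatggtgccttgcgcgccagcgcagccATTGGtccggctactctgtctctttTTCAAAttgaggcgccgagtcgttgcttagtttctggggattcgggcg

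The HMMR stretch held 2 TTTGAA matches end to end, with first bases 28 and 22 bases before the start, and 3 CCAAT matches, 2 of which overlap on opposite strands. DLGAP5 held a TTTGAA match that began 3 bases after its start and another 109 bases before it, with CCAAT matches 22 and 87 bases before it. KIF11 held 1 of each, 28 and 53 bases before the start. In NUSAP1 the TTTGAA match lay 13 bases after the start and CCAAT matches lay 64 and 105 bases before it. KIF20A held CCAAT matches 67 and 94 bases before the start and no TTTGAA. CENPE, which had the lowest ratio of all members, held neither TTTGAA nor CCAAT. The CHR variant TTTAAA, left in small letters, began 41 bases before the start in KIF20A, 40 in NUSAP1, and 68 and 62 in CENPE.

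Over the full 300 bases, TTTGAA was present in 6 of the 9 promoters (KIF11, KIF23, PRC1, NUSAP1, HMMR and DLGAP5), against 12.1% of 15843 protein-coding genes and 15.2% of all 35116 RefSeq promoters. CCAAT was present in 7 of the 9, those 6 and KIF20A, against 36.4% of protein-coding genes and 34.6% of all promoters. The same 6 members held both, against 5.02% of protein-coding genes. Among 57 other listed genes that were at least 2-fold lower with ebastine and had a promoter, 36.8% held both, against 9.03% of the 1285 listed genes with a promoter. Those 57 genes were picked by their ratio in these same libraries, so their share is a description and not an independent check. A variant of the CHR, TTTAAA, was present in 5 of the 9 (KIF20A, KIF23, KIF2C, CENPE and NUSAP1), against 9.70% of protein-coding genes. The variant TTCGAA and the E2F-type motif TTCCCGC were in none of the 9, against 1.57% and 8.60% of protein-coding genes. The E2F-type motif TTGGCGC and the TATA-box letters TATAAA were each found in NUSAP1 alone, and the GC-box letters GGCGGG in all 9, against 4.19%, 9.63% and 58.5% of protein-coding genes. Both strands were searched for each of the 8 motifs. A match describes letters in a window and is not a measured binding site.

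**Figure D1:**
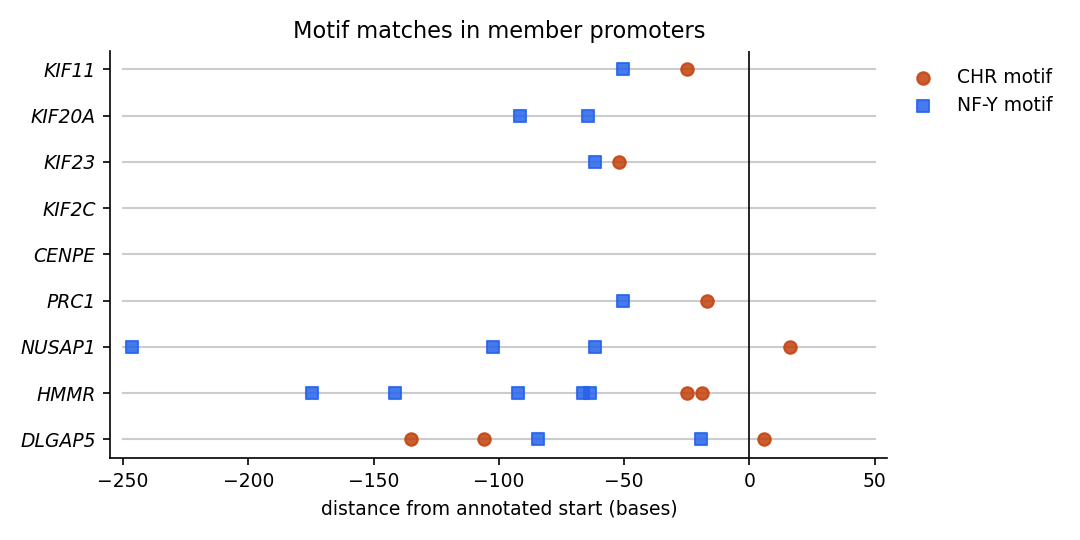
Positions of the CHR motif TTTGAA (circles) and the NF-Y motif CCAAT (squares) in the promoters of 9 members, with distance from the annotated start in bases on the horizontal axis and 1 grey line for each gene. KIF11, KIF23, PRC1, NUSAP1, HMMR and DLGAP5 carry both, KIF20A carries CCAAT only, and KIF2C and CENPE carry neither. The CHR variant TTTAAA, present in KIF20A, KIF23, KIF2C, CENPE and NUSAP1, is not drawn.

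All 10 members were lower in the ebastine library. Levels are given in FPKM, that is fragments scaled to the length of the transcript in kilobases and to 1000000 mapped fragments, as estimated by the authors' software, so that they can be compared between genes of different length. The log2 ratio is that of ebastine over vehicle after adding 1 FPKM to each. The summed level of the 10 members was 174 FPKM with ebastine and 427 FPKM with vehicle, so that the ebastine library held 40.7% of the vehicle sum. The median of their log2 ratios was -1.25, a 2.38-fold difference, beside -0.32 over the 1768 listed genes whose mean reached 1 FPKM. Of the members, 10 of 10 were lower, beside 57.0% of those listed genes. At least 1.5-fold lower were 10 of 10 members, beside 18.6% of listed genes, and at least 2-fold lower were 9 of 10, beside 4.86%. Since the members were chosen with earlier results of these data known, these shares are a description and not an independent check. After the ebastine library was rescaled to equal upper quartiles or centred on the median ratio, 5 of 10 members were at least 2-fold lower. Of the 1768 listed genes, 45 and 25 were then at least 2-fold lower, in that order. All 10 members stayed below 0 under both, where the median log2 ratio of all listed genes was -0.14 and -0.02. How many of all listed genes stayed below 0 was not counted, here or beside the lists below.

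There was 1 library per group, so these differences have no replicate check and no p-value of the treatment was computed. Per the authors' deposited table, a total of 9 of 10 members had a q-value under 0.05, beside 27.0% of the 1768 listed genes, counting those lower with ebastine. The deposited table holds only genes with a p-value under 0.05 in the authors' own test of these 2 libraries, 14.2% of those tested, so shares over listed genes describe that selection. With 1 library each, that test compares the libraries and not the treatments.

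**Figure D2:**
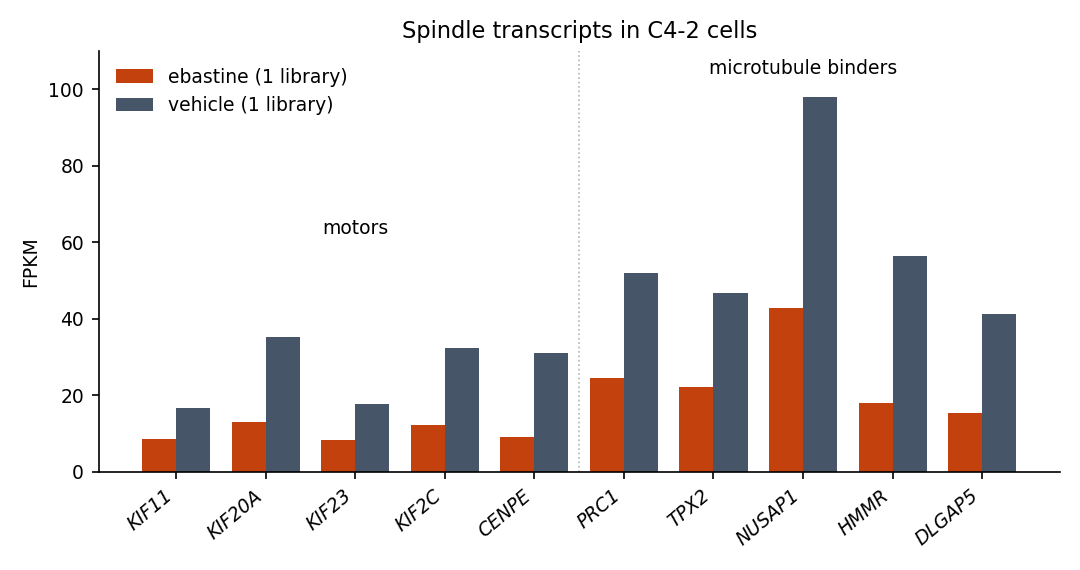
Level of each member in FPKM in the ebastine library (left bar of each pair) and the vehicle library (right bar), with motors left of the dotted line and microtubule binders right of it. Each bar is 1 library without an error. The ebastine bar is the shorter of each pair, at 28.9% of the vehicle level in CENPE, the lowest share, and 51.7% in KIF11, the highest.

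The motors were described first. CENPE, the kinetochore kinesin that carries misaligned chromosomes to the spindle equator (chromosome 4, 104026963 to 104119566 in hg19), stood at 8.95 FPKM with ebastine and 31.0 FPKM with vehicle. Its log2 ratio of -1.68, a 3.21-fold difference, was the fourth lowest of the 1768 genes. It was also the member with the largest q-value: in the authors' deposited table its q-value was 0.306.

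KIF20A, a kinesin that brings Aurora B and its partners to the central spindle at anaphase (chromosome 5, 137514417 to 137549032), stood at 13.1 FPKM with ebastine and 35.1 FPKM with vehicle. Its log2 ratio was -1.36, a 2.57-fold difference. The reported locus of KIF20A spans 34.6 kb while the RefSeq gene spans 8.61 kb, and the neighbouring CDC23 overlaps its end, so fragments of CDC23 can have entered the estimate; CDC23 itself was not among the listed genes. KIF2C, a kinesin that disassembles microtubule ends and corrects faulty attachments (chromosome 1, 45205490 to 45233438), stood at 12.3 FPKM with ebastine and 32.3 FPKM with vehicle, a log2 ratio of -1.32.

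The remaining motors differed least. KIF23, which joins RACGAP1 in the centralspindlin complex that organises cytokinesis (chromosome 15, 69706627 to 69740764), stood at 8.33 FPKM with ebastine and 17.7 FPKM with vehicle, a log2 ratio of -1.01. KIF11, the kinesin that pushes the spindle poles apart and the target of several antimitotic inhibitors (chromosome 10, 94352825 to 94415152), stood at 8.57 FPKM with ebastine and 16.6 FPKM with vehicle. Its log2 ratio of -0.88, a 1.84-fold difference, was the smallest in size among the members and left it outside the 2-fold limit. The motors thus ran from 1.84-fold to 3.21-fold lower, although KIF11 and KIF23 stood at nearly the same level as each other in each library.

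Among the microtubule binders HMMR differed most. HMMR, first described as a hyaluronan receptor and known at the spindle for helping to position TPX2 and the poles (chromosome 5, 162887517 to 162921064), stood at 17.9 FPKM with ebastine and 56.4 FPKM with vehicle. Its log2 ratio of -1.60, a 3.04-fold difference, was the sixth lowest of the 1768 genes. The antisense gene HMMR-AS1 overlaps it, and PRC1 and KIF23 likewise overlap PRC1-AS1 and KIF23-AS1; no strand setting is stated, so sense and antisense fragments cannot be told apart. DLGAP5, which bundles and stabilises kinetochore fibres near chromosomes (chromosome 14, 55614834 to 55658396), stood at 15.3 FPKM with ebastine and 41.2 FPKM with vehicle, a log2 ratio of -1.38.

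NUSAP1, which cross-links spindle microtubules around chromosomes (chromosome 15, 41624892 to 41673248), was the most abundant member in both libraries. It stood at 42.7 FPKM with ebastine and 97.8 FPKM with vehicle, a log2 ratio of -1.18. The difference of -55.1 FPKM was the largest in size of the 10. PRC1, the cross-linker of antiparallel microtubules in the anaphase midzone (chromosome 15, 91509268 to 91537881), stood at 24.6 FPKM with ebastine and 51.9 FPKM with vehicle. This gene shares only its name with Polycomb repressive complex 1, another Polycomb complex than that of EZH2, which the series title names. TPX2, which activates the kinase Aurora A and promotes microtubule nucleation (chromosome 20, 30326904 to 30389603), stood at 22.1 FPKM with ebastine and 46.8 FPKM with vehicle. PRC1 and TPX2 had the same log2 ratio of -1.05, a 2.07-fold difference.

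**Figure D3:**
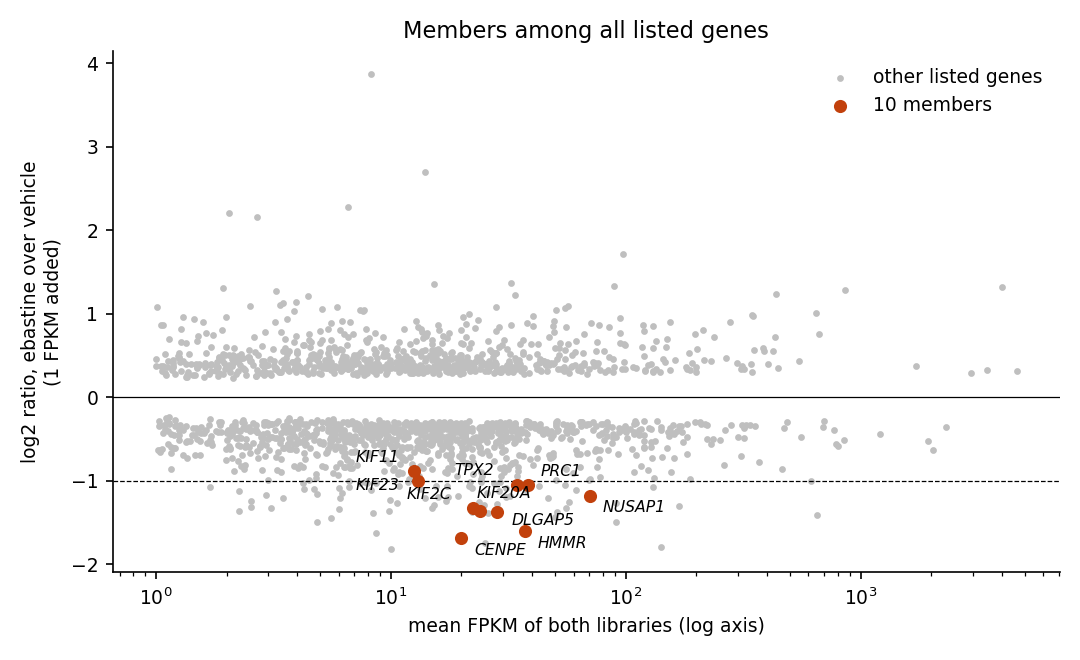
Log2 ratio of ebastine over vehicle against the mean FPKM of both libraries (log axis) for the 1768 listed genes whose mean reached 1 FPKM (grey) and the 10 members (orange, named). The empty band around 0 is where genes did not enter the deposited table, and the dashed line marks a 2-fold lower level; 9 members lie below it and KIF11 lies above it.

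Of the 25 lowest log2 ratios among the 1768 genes, 5 belonged to members: CENPE, HMMR, DLGAP5, KIF20A and KIF2C. The members made up 10.5% of the 86 genes at least 2-fold lower. These 5 lay between -1.32 and -1.68, and the other 5, KIF11, KIF23, PRC1, TPX2 and NUSAP1, between -0.88 and -1.18. This cut of the ordered ratios is for description only and marks no separate groups. Motors and microtubule binders occurred on each side of it. The median log2 ratio was -1.32 over the 5 motors and -1.18 over the 5 microtubule binders.

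Because the differences were unequal, the order of the members also differed between the libraries. From high to low in the ebastine library it was NUSAP1, PRC1, TPX2, HMMR, DLGAP5, KIF20A, KIF2C, CENPE, KIF11 and KIF23. In the vehicle library HMMR stood second, ahead of PRC1 and TPX2, and KIF23 stood ahead of KIF11. No spread exists from which to say whether neighbours in these orders differ.

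Ratios between members within 1 library do not depend on how the libraries were scaled to each other. HMMR was 0.809 times TPX2 with ebastine and 1.20 times TPX2 with vehicle. CENPE was 1.04 times KIF11 with ebastine and 1.87 times KIF11 with vehicle. KIF20A was 1.57 times KIF23 with ebastine and 1.98 times KIF23 with vehicle. PRC1 and TPX2 kept their proportion, at 1.11 in both libraries, while HMMR, CENPE and KIF20A were each a smaller multiple of their comparator in the ebastine library. These multiples follow from the log2 ratios given above and add no separate evidence. CENPE and KIF11 were the members with the lowest and the highest log2 ratio.

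**Figure D4:**
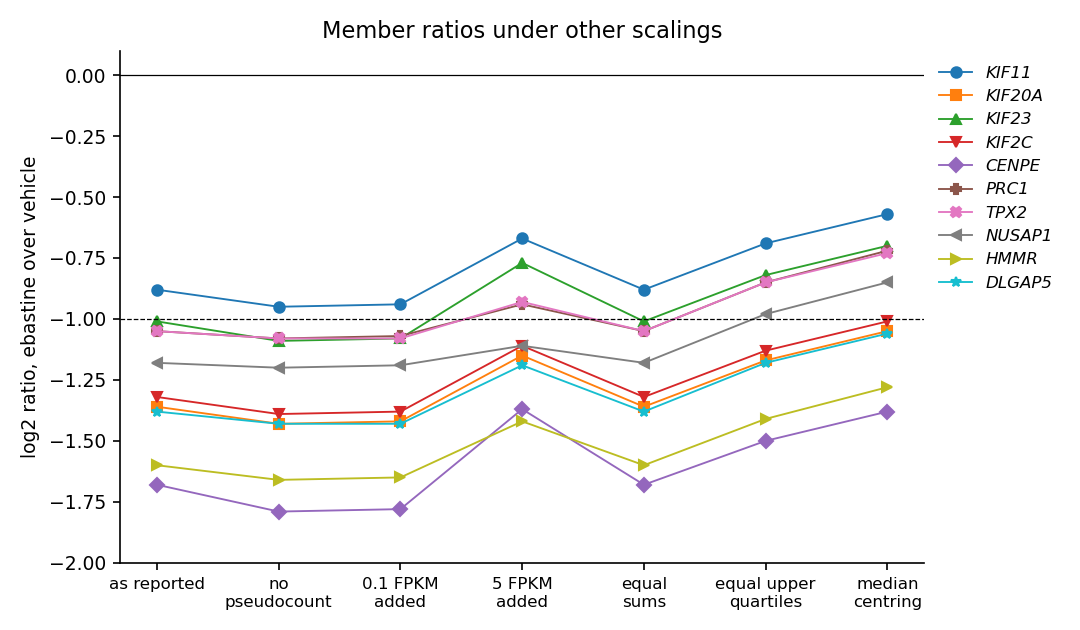
Log2 ratio of ebastine over vehicle for each member (1 coloured line and symbol each) as reported with 1 FPKM added, without a pseudocount, with 0.1 or 5 FPKM added, and after 3 rescalings of the ebastine library. All members lie below 0 under each setting shown, although an added constant cannot change the sign of a ratio. The dashed line marks 2-fold lower. With 5 FPKM added 6 members reach it, and 5 members miss it after upper quartile rescaling and after median centring.

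Transcripts of proteins that work directly with the members were lower too. Of 18 partners 15 were listed, and all 15 were lower with ebastine, also after rescaling, 5 of them at least 2-fold; the log2 ratios had a median of -0.94. After either rescaling 1 of the 15 was at least 2-fold lower. AURKA, the kinase that TPX2 activates, stood at 18.4 FPKM with ebastine and 43.2 FPKM with vehicle, and TPX2 was 1.20 times AURKA with ebastine and 1.08 times AURKA with vehicle. PLK1, the mitotic kinase that docks on KIF20A and PRC1, stood at 13.9 FPKM with ebastine and 37.9 FPKM with vehicle, the lowest ratio of the partners at -1.38. FAM83D, which binds HMMR and brings a casein kinase to the spindle, stood at 19.4 FPKM with ebastine and 45.0 FPKM with vehicle.

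The cytokinesis partners were lower by less than PLK1. RACGAP1, the other subunit of centralspindlin, stood at 22.1 FPKM with ebastine and 41.0 FPKM with vehicle, and its exchange factor partner ECT2 stood at 25.7 FPKM with ebastine and 53.3 FPKM with vehicle. KIF4A, the motor that PRC1 recruits to the midzone, stood at 8.18 FPKM with ebastine and 17.3 FPKM with vehicle, so PRC1 was 3.01 times KIF4A with ebastine and 3.0 times KIF4A with vehicle. For the chromosomal passenger complex, the cargo of KIF20A, the transcripts of all 4 subunits were lower. The log2 ratio was -1.11 in BIRC5, -0.94 in CDCA8, -0.84 in the kinase AURKB and -0.63 in the scaffold INCENP.

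The remaining listed partners ran from near 2-fold to less than 1.5-fold lower. BUB1B, the checkpoint kinase that binds CENPE, stood at 15.9 FPKM with ebastine and 32.5 FPKM with vehicle. CDK1, the master mitotic kinase, stood at 108 FPKM with ebastine and 203 FPKM with vehicle, and KIF18B, which cooperates with KIF2C at microtubule ends, stood at 4.52 FPKM with ebastine and 8.75 FPKM with vehicle. The ratios nearest to 0 were those of BRCA1, a ubiquitin ligase reported to act on HMMR, at -0.56, and of the microtubule polymerase CKAP5, at -0.45. KPNB1, RAN and NUMA1 were not among the listed genes.

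Transcripts of other motors of mitosis were lower by less than the members at their median. Of 12 such motors 7 were listed, all 7 were lower with ebastine, also after rescaling, and 1 was at least 2-fold lower; the median log2 ratio was -0.90. These motors have low levels, and without the added 1 FPKM 4 of the 7 were at least 2-fold lower, with a median of -1.05, whereas after either rescaling 0 were. The lowest ratios were those of KIF14, a motor of the midbody, at 2.45 FPKM with ebastine and 5.99 FPKM with vehicle, of KIF4A, and of KIF18A, which dampens chromosome oscillation, at 1.68 FPKM with ebastine and 4.34 FPKM with vehicle. KIF20B, at 6.91 FPKM with ebastine and 12.7 FPKM with vehicle, had the ratio nearest to 0. The summed level of the 10 members was 4.06 times that of these 7 motors with ebastine and 4.97 times with vehicle.

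Of 23 genes of other spindle microtubule-associated proteins 16 were listed, and all 16 were lower, also after rescaling, 6 of them at least 2-fold, with their median at -0.87. After either rescaling 2 of the 16 were at least 2-fold lower. ASPM, a spindle pole protein, had the lowest ratio, at 2.97 FPKM with ebastine and 9.05 FPKM with vehicle, and GTSE1, a microtubule tip protein, stood at 8.10 FPKM with ebastine and 21.7 FPKM with vehicle. The augmin subunits HAUS6 and HAUS7, which branch microtubules from existing ones, had ratios of -0.38 and -0.37. In the authors' deposited table HAUS6 and HAUS7 did not have a q-value under 0.05.

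The members were set beside 3 related groups of cell division genes, some of which share genes with the partner list. Of 16 mitotic kinases and checkpoint genes 15 were listed, all lower, also after rescaling, with a median of -0.98 and the kinase NEK2 among the lowest at 13.7 FPKM with ebastine and 34.0 FPKM with vehicle. All 13 cyclins, securin and anaphase trigger genes were listed and lower, 12 of them after centring on the median, with a median of -0.98; the securin PTTG1 stood at 62.8 FPKM with ebastine and 220.3 FPKM with vehicle. Of 27 kinetochore and centromere genes 25 were listed, all lower, also after rescaling, with a median of -0.81 and the centromeric histone CENPA at 8.47 FPKM with ebastine and 22.2 FPKM with vehicle. The share at least 2-fold lower was 7 of 15, 6 of 13 and 9 of 25 in these groups and 9 of 10 in the members. With equal upper quartiles it was 2 of 15, 4 of 13 and 3 of 25, and after centring 1 of 15, 2 of 13 and 0 of 25, against 5 of 10 members under each. The members had been chosen with such results known, and the difference between the groups was not tested.

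Genes of replication licensing and of the replicative helicase, called licensing genes here, were closer to the median of all listed genes. Of 18 genes 14 were listed and all 14 were lower, 12 of them after centring on the median, with none at least 2-fold lower; the median log2 ratio was -0.39. CDC45, part of the replicative helicase, stood at 23.8 FPKM with ebastine and 37.5 FPKM with vehicle, and MCM7 stood at 95.1 FPKM with ebastine and 144 FPKM with vehicle. The summed level of the 10 members was 0.438 times that of the 14 licensing genes with ebastine and 0.776 times with vehicle, a ratio that no scaling between the libraries can alter.

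**Figure D5:**
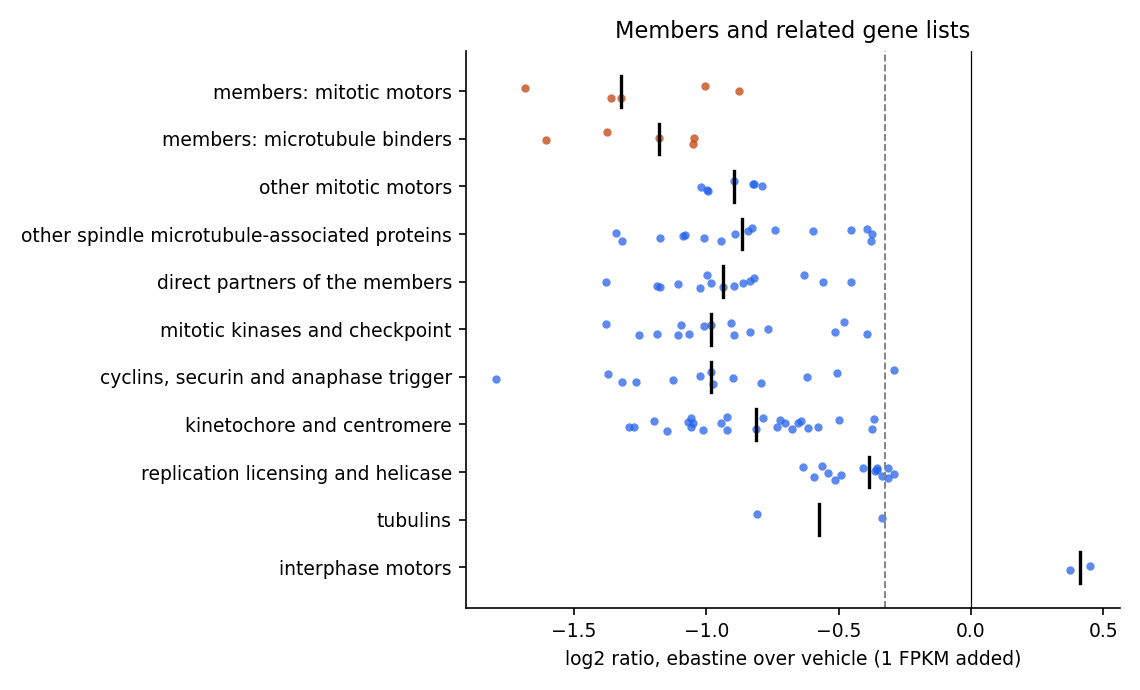
Log2 ratio of ebastine over vehicle for each listed gene whose mean reached 1 FPKM (points) in the members (orange, top) and in related gene lists (blue), with the median of each list as a black bar and the median of all 1768 genes as a dashed line. The members have medians of -1.32 and -1.18, the mitotic lists lie between -0.81 and -0.98, and licensing genes lie at -0.39; the points are jittered vertically and show only genes of the deposited table.

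Interphase motors and tubulins were mostly not in the table, as holds for genes in general, since 14.2% of those tested were listed. Of 20 interphase motors 2 were listed, both higher with ebastine: KIF1A, a carrier of vesicles, stood at 17.4 FPKM with ebastine and 12.5 FPKM with vehicle, and KIF5C, a conventional kinesin heavy chain, stood at 5.70 FPKM with ebastine and 4.16 FPKM with vehicle. Of 12 tubulin genes 2 were listed. TUBA1B, a main alpha-tubulin with near-identical copies among which reads can be split, stood at 189.7 FPKM with ebastine and 333 FPKM with vehicle. TUBG1, the gamma-tubulin of nucleation complexes, had a log2 ratio of -0.34, or -0.01 after centring. The summed level of the 10 members was 0.916 times TUBA1B with ebastine and 1.28 times TUBA1B with vehicle.

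With only 2 libraries the pattern of a gene across samples is a single ratio. Among the genes of the other lists, members left out, the one with the nearest log2 ratio was PTTG1 for CENPE and for HMMR, at -1.79. It was PLK1 for DLGAP5, CCNB2 for KIF20A, GTSE1 for KIF2C, FAM83D for NUSAP1, CENPW for PRC1 and TPX2, CKAP2L for KIF23 and SPAG5 for KIF11. EZH2, the methyltransferase in the series title, stood at 18.4 FPKM with ebastine and 26.2 FPKM with vehicle, a log2 ratio of -0.48, nearer to 0 than that of each member.

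Of 12 prostate luminal markers 5 were listed, 3 lower and 2 higher with ebastine. KLK3, which encodes prostate-specific antigen, stood at 1599 FPKM with ebastine and 2476 FPKM with vehicle, and the surface antigen FOLH1 at 840.4 FPKM with ebastine and 495 FPKM with vehicle, so these 2 were abundant in both libraries. KLK2 stood at 272 FPKM with ebastine and 465 FPKM with vehicle. ACPP was low, at 5.55 FPKM with ebastine and 2.21 FPKM with vehicle, a log2 ratio of 1.03. The log2 ratio of TMPRSS2 was -0.33, or 0.01 after centring. None of 10 fibroblast and endothelial markers and 1 of 10 leukocyte markers was listed, the last being CD4, named after its values were seen, at 0.693 FPKM with ebastine and 0.400 FPKM with vehicle. A marker that is expressed alike in both libraries would not be listed, so absence from the table does not show that other cell types are absent. The deposited table gives no counts, so the depth of the libraries is unknown and no counting interval can be given. The median over listed genes was 9.49 FPKM with ebastine and 10.5 FPKM with vehicle.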

How the data were processed

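Polyadenylated RNA of 2 C4-2 cultures, 1 with ebastine and 1 with vehicle, was sequenced. Per the submitters' processing notes, which give no versions, TopHat2, Cuffdiff and the hg19 build were used. The authors deposited 1 table with FPKM per gene and library, estimated and scaled by Cuffdiff per its layout. The deposited table also gives the authors' log2 fold change, test statistic (a score), p-value and q-value per gene. It lists 1947 genes with p-values up to 0.0499; the q-values correspond to an adjustment over 13714 genes. No gene models, counting or strand settings were given in the sources used here. Depth is unknown.

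Ratios were log2((ebastine + 1)/(vehicle + 1)) in FPKM, over the 1768 genes whose mean reached 1 FPKM. The added 1 makes changes of low genes look smaller. Calls were differences of 2-fold or 1.5-fold; no test is possible with 1 library per group. Locus starts count from 0 in the file and were converted: the locus length then equals the RefSeq gene length for 79 of 1725 genes, against 28 otherwise. List genes were matched by symbol, then by older names. Genes were named by a rule that took all members, all listed partners, up to 3 of the largest and 2 of the smallest ratios per list, the nearest list gene to each member, and EZH2. Members and lists were chosen with earlier results of these data known. Motifs were sought in RefSeq promoters (GRCh38.p14), whose coordinates were not mixed with hg19. Alternatives were other pseudocounts (0, 0.1 and 5 FPKM), minimum means (none and 5 FPKM), 3 rescalings and a q-value limit of 0.05. The calculation was tested on simulated data with Python 3.11.15, pandas 2.3.3 and numpy 2.4.6.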

Additional observations from a re-analysis of the deposited data

How the results depend on the processing

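All 10 members stayed below 0 under each of the 9 alternatives in which they were kept. The limit to a deposited q-value under 0.05 leaves out CENPE. For most alternatives this sign was fixed in advance and is no check. An added constant cannot change the sign of a ratio, and minimum means and the q-value limit change no ratio. Rescaling to equal sums left the ebastine values almost unchanged. Only equal upper quartiles and centring moved the ratios towards higher values by rescaling. The median log2 ratio of the members, -1.25 as reported, was -1.29 with 0.1 FPKM or no pseudocount, -1.11 with 5 FPKM, -1.18 with the q-value limit, -1.05 with equal upper quartiles and -0.93 after centring on the median ratio of genes whose mean reached 10 FPKM. The last 2 multiply ebastine values by 1.15 and 1.26, and under each of them 5 members were at least 2-fold lower. With 5 FPKM added, 6 members and 30 of all listed genes were at least 2-fold lower. Over all listed genes the numbers at least 2-fold higher and lower, 32 and 86 as reported, became 74 and 45 with equal upper quartiles and 115 and 25 after centring. Centring turned CKS2 and MCM5 to 0.04, TMPRSS2 to 0.01 and the median of the luminal markers to 0.01, which was 0.07 under the q-value limit. Both rescalings were computed on the filtered table. No paired analysis was possible because each group held 1 library, and no library could be left out. Unknown depth limits the precision of each ratio.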

Other observations

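CENPE stands apart in the authors' deposited table. Among the 58 genes that were at least 2-fold lower with ebastine and whose mean reached 10 FPKM, 2 had a q-value of 0.05 or more, CENPE and LOC728323, which was named after its values were seen. CENPE has the longest coding transcript of the members in GENCODE 29, at 8612 bases, against 2409 to 4860 bases in the other members. Its deposited test statistic was -0.84, while those of the other 9 members ran from -4.37 (KIF11) to -7.76 (HMMR). Of the 4 listed genes whose test statistic was under 1 in size, CENPE was the 1 whose mean reached 1 FPKM. In the authors' deposited table its p-value was 0.0396 and that of each other member was 5e-05, the smallest value in the table, shared by 385 genes. The cause of the small statistic was not tested.

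The 2 members with neither a TTTGAA nor a CCAAT match in their promoter, CENPE and KIF2C, had log2 ratios of -1.68 and -1.32. Each of these 2 promoters held the CHR variant TTTAAA, as did those of KIF20A, KIF23 and NUSAP1. The 6 members with both TTTGAA and CCAAT ran from -1.60 in HMMR to -0.88 in KIF11, so CENPE lay below that range and KIF2C within it.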
